A study of Mus musculus with 8 samples.

Results

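Subcerebral projection neurons (SCPN) are excitatory neurons of cortical layer V whose axons leave the cortex for the brainstem and the spinal cord, and they include the corticospinal neurons that carry motor commands. Their identity depends on the transcription factors Fezf2, which specifies subcerebral fate, and Bcl11b (also called CTIP2), which acts downstream of it in axon outgrowth. The classes set beside them here are callosal projection neurons (CPN), whose axons join the cerebral hemispheres, and corticothalamic projection neurons (CThPN), which lie mainly in layer VI and project to the thalamus. In the days after birth the axons of SCPN are still growing into the spinal cord, and collaterals are later pruned.

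The SCPN were the cells that the authors' annotation named so, at every age, and they numbered 1248 of 60989 cells. Their library was read from the number that follows each cell barcode. The annotation divided them into 4 clusters made within each age, with 528 cells in P1_14 and 360 in P1_16 at P1 (postnatal day 1), 314 in P7_14 at P7, and 46 in P21_13 at P21. The table of cells gave for each cell its UMIs (unique molecular identifiers, each standing for a captured transcript), the number of genes detected and the mitochondrial share of UMIs. It held no expression values, so the name SCPN could not be checked against Fezf2 and Bcl11b and was used as given.

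The cells came from the somatosensory and motor cortex of untreated wild-type C57BL/6 mice, which carried no transgene, in 3 libraries at P1, 2 at P7 and 3 at P21. Each library was a pool of several animals of both sexes, so that p-values measured the spread between libraries and not between animals. Live cells were sorted by dyes and captured with 10x Genomics 3′ chemistry, and more papain was used to dissociate the P21 tissue. Both P7 libraries carried the same collection date, and no date was shared by different ages, so that age and collection day cannot be told apart.

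The libraries are called by their barcode numbers. Numbers 3, 4 and 5 are of P1, 1 and 2 of P7, and 6, 7 and 8 of P21. They held 2240 to 11310 cells and 7751963 to 58553300 UMIs. The P21 libraries stood apart, since they contained 171, 41 and 285 projection neurons, against 6840 to 9032 in the libraries of the younger ages. Library 7 contained no cell named SCPN. No cell at P21 was named CThPN, so that comparisons with CThPN covered P1 and P7 only.

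SCPN made up a smaller part of the sorted cortex at each later age. The P1 libraries held 390 SCPN in library 3, 225 in library 4 and 273 in library 5, or 3.61% (95% exact binomial interval 3.26 to 3.98), 2.45% (2.15 to 2.79) and 3.19% (2.83 to 3.58) of their cells. The P7 libraries held 163 in library 1 and 151 in library 2, or 1.44% (1.23 to 1.68) and 1.35% (1.15 to 1.58). At P21, 23 SCPN in library 6 were 0.804% (0.510 to 1.20) and 23 in library 8 were 0.473% (0.300 to 0.709), while the count of 0 in library 7 had an exact upper limit of 0.165%. No library of an age overlapped with a library of another age.

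The mean share of all cells was 3.08% ± 0.585 (SD, n = 3) at P1, 1.40% ± 0.0638 (n = 2) at P7 and 0.426% ± 0.404 (n = 3) at P21, so that the P1 mean was 2.21-fold that at P7. The share differed among the ages (two-sided exact permutation test, p = 0.00357, the smallest that the 560 assignments of libraries to ages allow; Benjamini-Hochberg adjusted p over 3 shares = 0.0107). Pairs of ages were not tested separately. On the scale of log2 odds (SCPN against all other cells, with 0.5 cells added to each) the adjusted permutation p was 0.129. Among cells with at least 1500 genes it was 0.0536. The intervals cover counting error only.

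**Figure D1:**
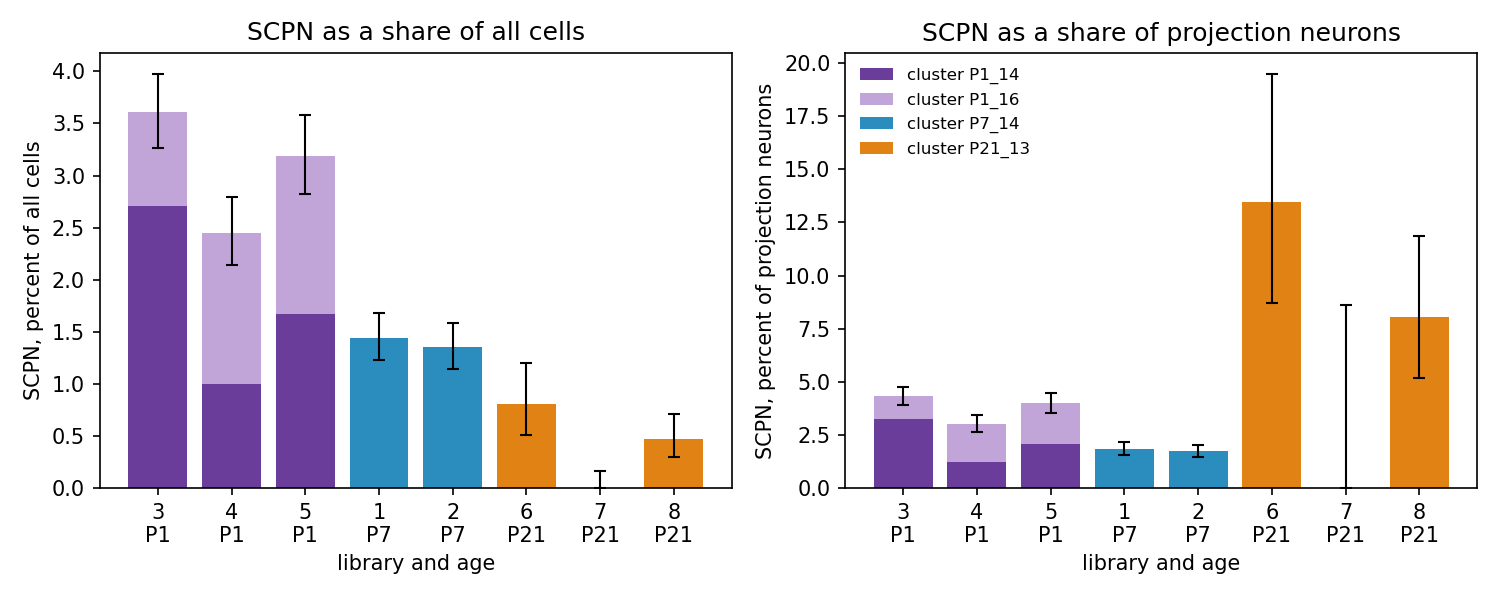
SCPN in each library as a percentage of all cells (left) and of projection neurons (right), with bars for the share, whiskers for the 95% exact binomial interval, and libraries ordered by age. The share of all cells was lower at each later age. The share of projection neurons at P21 was 13.5% in library 6 and 8.07% in library 8. It was 0 of 41 cells in library 7, which has no bar. The projection neurons of P21 included no CThPN, unlike those of P1 and P7.

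Among projection neurons alone the order of ages was not the same. SCPN made up 4.32% (3.91 to 4.76), 3.02% (2.64 to 3.43) and 3.99% (3.54 to 4.48) of the projection neurons in P1 libraries 3, 4 and 5. They made up 1.86% (1.59 to 2.17) and 1.74% (1.47 to 2.04) in P7 libraries 1 and 2. At P21 the share was 13.5% (8.72 to 19.5) in library 6 and 8.07% (5.18 to 11.9) in library 8, and 0 of 41 projection neurons in library 7 had an exact upper limit of 8.60%. The P1 libraries were all above the P7 libraries, and P21 libraries 6 and 8 were above both. Projection neurons here were SCPN, CPN, CThPN and layer IV neurons. Since no P21 cell was named CThPN, the P21 shares were taken over fewer classes than those at P1 and P7. How far this raised them was not tested.

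The mean share of projection neurons was 3.78% ± 0.677 (SD, n = 3) at P1, 1.80% ± 0.0864 (n = 2) at P7 and 7.17% ± 6.77 (n = 3) at P21, and no difference among ages passed the exact permutation test (adjusted p = 0.418). Library 7 decided this result, since without it the P21 mean lay 6.98 percentage points above that at P1 and the adjusted permutation p was 0.00952. Projection neurons were few in the P21 libraries, and the intervals of their shares were the widest of any age.

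Against CPN the numbers took the same order. There were 6.49, 5.43 and 6.11 SCPN per 100 CPN in P1 libraries 3, 4 and 5, and 3.39 and 3.41 in P7 libraries 1 and 2. At P21 there were 17.0 in library 6 and 27.4 in library 8, and with 31 CPN and no SCPN library 7 allows up to 9.68. The means were 6.01 ± 0.538 (SD, n = 3), 3.40 ± 0.0132 (n = 2) and 14.8 ± 13.8 (n = 3), with no difference among ages by the exact permutation test (adjusted p = 0.418). Without library 7 the P21 mean was 16.2 above the P1 mean and the adjusted permutation p was 0.00952.

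Against CThPN, the other class of corticofugal neurons, SCPN were more numerous at P1 than at P7. There were 47.7, 17.1 and 24.4 SCPN per 100 CThPN in P1 libraries 3, 4 and 5, and 6.60 and 5.57 in P7 libraries 1 and 2. The libraries of the ages did not overlap, and the P1 mean of 29.8 ± 16 (SD, n = 3) was 4.89-fold the P7 mean of 6.09 ± 0.730 (n = 2). The two-sided exact permutation test gave p = 0.2, and with 3 libraries against 2 it cannot go below 0.1. Library 3 was far above libraries 4 and 5, and it contained 817 CThPN where they contained 1315 and 1117. P7 libraries 1 and 2 contained 2468 and 2710 CThPN, so that the ratio also reflects more CThPN at P7.

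Among the ages, SCPN of P21 had the highest median content of transcripts. The median SCPN held 4907, 4759 and 5866 UMIs in P1 libraries 3, 4 and 5, 4922 and 4996 in P7 libraries 1 and 2, and 6905 and 8612 in P21 libraries 6 and 8. The P7 values fell inside the range of the P1 values, and both P21 values were above all others. The means of the library medians were 5177 ± 601 (SD, n = 3), 4959 ± 52.3 (n = 2) and 7759 ± 1207 (n = 2) UMIs, and the adjusted p for a difference among ages was 0.105 by the exact permutation test. With means over cells in place of medians the P21 value lay 1047 UMIs above that at P1, against 2581 with medians, and P1 library 5, with a mean of 6686 UMIs, was then above P21 library 6, with 6168. The authors had thinned the libraries to a like coverage per cell, so that these levels are relative to that depth and not absolute amounts of RNA.

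Genes detected per SCPN were also highest at P21. The median was 2149, 2281 and 2552 genes in P1 libraries 3, 4 and 5, 2317 and 2365 in P7 libraries 1 and 2, and 3125 and 3615 in P21 libraries 6 and 8. Again only the P21 values stood outside the range of the others, with age means of 2327 ± 205 (SD, n = 3), 2341 ± 33.9 (n = 2) and 3370 ± 346 (n = 2) and an adjusted exact permutation p of 0.105. Within each library genes rose with UMIs almost along a line, with Pearson's r across cells of 0.984 to 0.995 on log2 scales and a slope of 0.596 to 0.651. The cells of a library share its depth, and both measures come from the same reads.

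The mitochondrial share of UMIs was lowest in SCPN of P1. The median share was 4.12%, 4.81% and 3.87% in P1 libraries 3, 4 and 5, 5.34% and 5.07% in P7 libraries 1 and 2, and 4.97% and 4.91% in P21 libraries 6 and 8. All P1 values were below the values of the later ages, with age means of 4.27% ± 0.490 (SD, n = 3), 5.20% ± 0.195 (n = 2) and 4.94% ± 0.0405 (n = 2). The adjusted exact permutation p for a difference among ages was again 0.105. Across the cells of a library the mitochondrial share was weakly and negatively related to UMIs, with Spearman's rho from -0.382 to -0.0281.

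**Figure D2:**
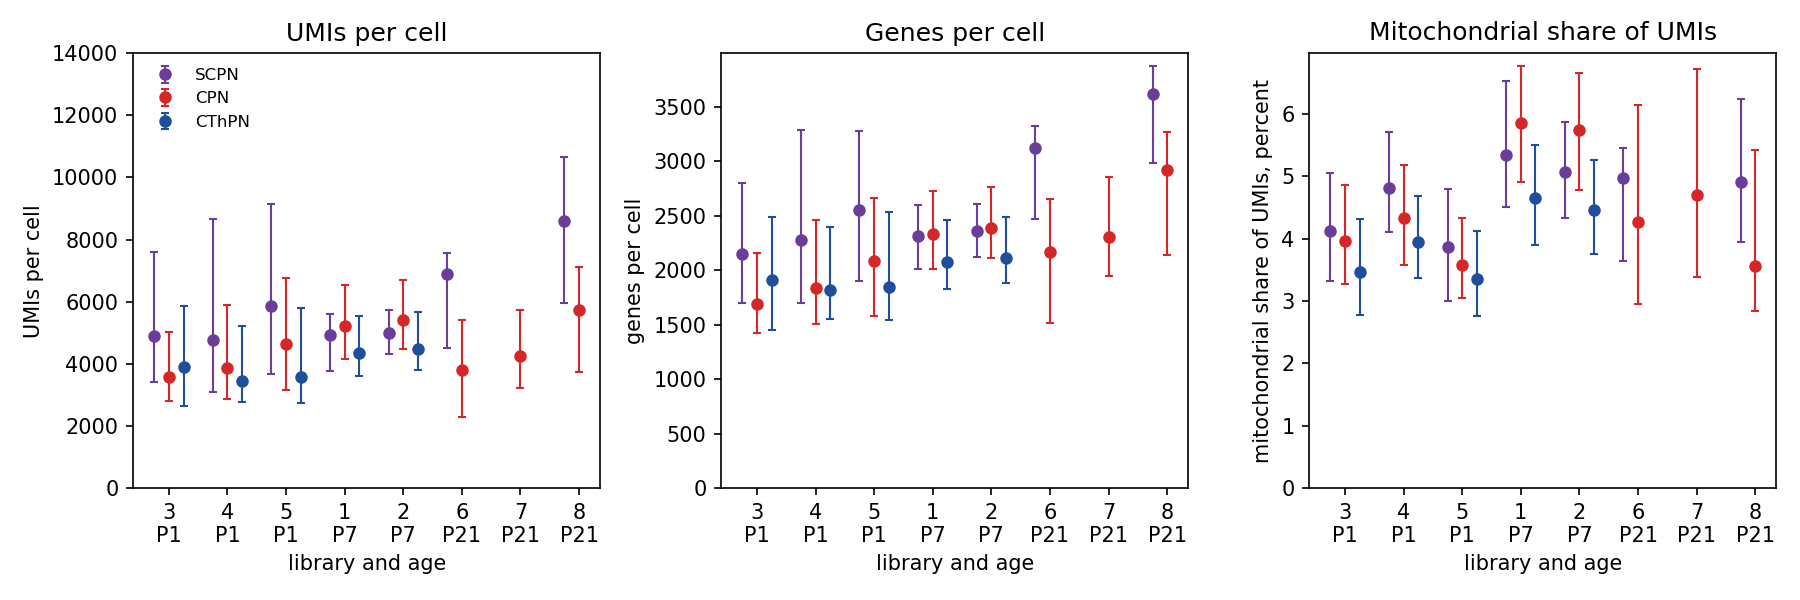
Median UMIs per cell (left), genes per cell (middle) and percentage of UMIs that were mitochondrial (right) in SCPN, CPN and CThPN in each library, with whiskers from the lower to the upper quartile. SCPN lay above CPN in UMIs at P1 and P21 and slightly below them at P7, and library 7 had no SCPN.

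SCPN were most uneven in content at P1. The upper quartile of UMIs was 2.50-fold the lower quartile at P1 (± 0.288, SD over 3 libraries), 1.40-fold at P7 (± 0.112, n = 2) and 1.74-fold at P21 (± 0.0782, n = 2). In CPN the same ratio was 1.99 ± 0.183 at P1 and 1.54 ± 0.0553 at P7, and in CThPN it was 2.06 ± 0.171 and 1.51 ± 0.0286. The class with the widest spread at P1 thus had the narrowest spread at P7, a pattern that is given as values and was not tested. The share of SCPN with over 10000 UMIs was 12.1%, 18.2% and 19.0% in P1 libraries 3, 4 and 5, against 3.41%, 5.50% and 8.75% of CPN and 6.73%, 4.94% and 7.70% of CThPN. At P7 it was 3.07% and 3.97% of SCPN in libraries 1 and 2, against 6.52% and 7.18% of CPN and 4.66% and 3.84% of CThPN. At P21 it was 4.35% of the SCPN in library 6 and 34.8% of those in library 8.

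The annotation split the P1 SCPN into P1_14 and P1_16, whereas P7 and P21 each had a single SCPN cluster. P1_14 made up 75.1% (70.5 to 79.3) of the SCPN in library 3, 40.9% (34.4 to 47.6) in library 4 and 52.4% (46.3 to 58.4) in library 5, and the intervals of these shares overlapped for libraries 4 and 5 only. As a share of projection neurons P1_14 was 3.24%, 1.23% and 2.09% in the same libraries (2.19% ± 1.01, SD, n = 3), and P1_16 was 1.07%, 1.78% and 1.90% (1.59% ± 0.447). Library 3 had the most P1_14 and the fewest P1_16 cells by this share. Since the clusters were made from the expression of these same cells, differences between them are given without a test.

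P1_14 held cells of much higher content than P1_16. The median P1_14 cell contained 5384 UMIs in library 3, 9326 in library 4 and 8446 in library 5, and the median P1_16 cell contained 3620, 3369 and 3874. The log2 ratio of P1_16 to P1_14 was -0.57, -1.47 and -1.12 (mean -1.06 ± 0.45, SD, n = 3), so that P1_16 was lower in every library, and least so in library 3. When each P1_16 cell was set against each P1_14 cell of its library, the P1_16 cell held more UMIs in 27.9% of pairs in library 3, 8.20% in library 4 and 13.9% in library 5. The ranges of the clusters thus overlapped in every library. Within P1_14 the upper quartile of UMIs was 2.16-fold, 1.61-fold and 1.75-fold the lower quartile in libraries 3, 4 and 5, and within P1_16 it was 1.77-fold, 1.80-fold and 1.73-fold. For all SCPN of these libraries the ratio was 2.22, 2.80 and 2.48, so that in library 3 P1_14 alone was nearly as uneven as both clusters together.

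Genes per cell differed in the same way. The median was 2262, 3426 and 3169 genes in P1_14 and 1757, 1793 and 1940 genes in P1_16, in libraries 3, 4 and 5, with log2 ratios of P1_16 to P1_14 of -0.36, -0.93 and -0.71. For the mitochondrial share the median of P1_16 minus that of P1_14 was 0.107 percentage points in library 3, -0.492 in library 4 and 0.152 in library 5. When P1_16 cells were set against P1_14 cells of the same library and the same bin of 500 UMIs, the mean difference in mitochondrial share was -0.0623, -1.14 and -0.712 points, from 93, 8 and 50 P1_16 cells, and so below 0 in each library. Cells with over 10000 UMIs were 14.3%, 42.4% and 33.6% of P1_14 and 5.15%, 1.5% and 3.08% of P1_16. Of the 30 SCPN with over 13500 UMIs, close to the maximum of 15000 set by the authors, 29 were in P1_14 and 1 was in P1_16, and none was at P7 or P21. The sources used here do not say how doublets (droplets with more than a single cell) were handled, and their part in this tail was not tested.

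**Figure D3:**
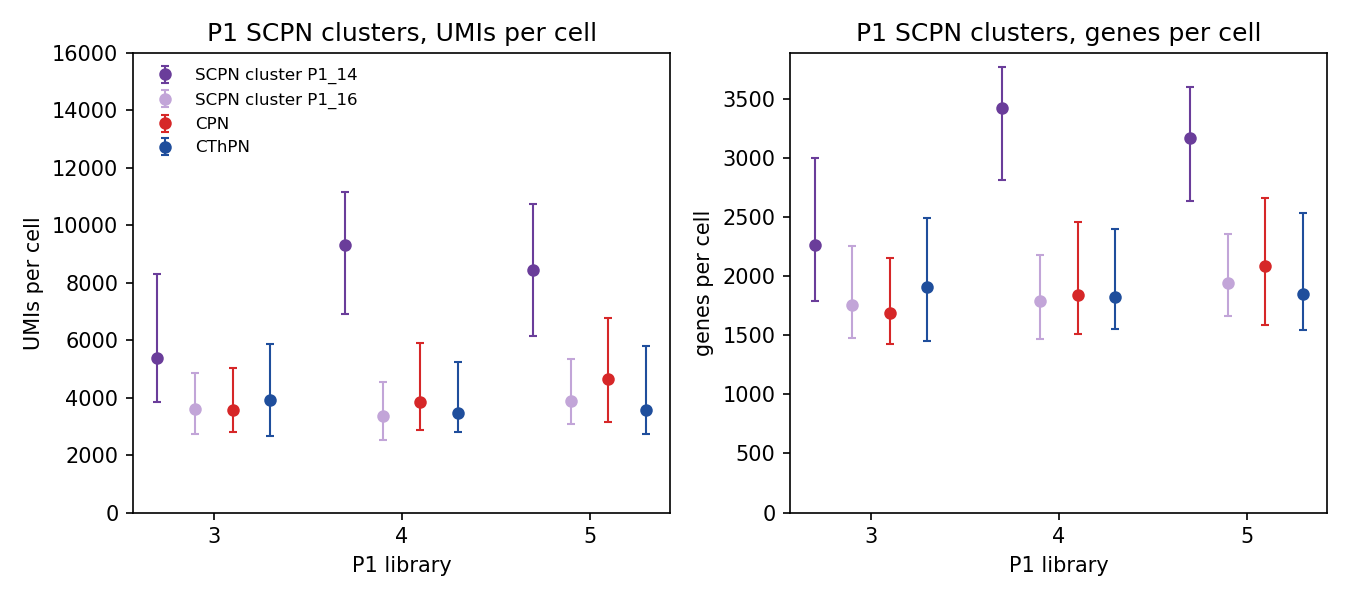
Median UMIs (left) and genes (right) per cell of the SCPN clusters P1_14 and P1_16, beside CPN and CThPN of the same P1 libraries, with whiskers from the lower to the upper quartile. P1_14 was above the other groups in each library, and P1_16 lay near the level of CPN and CThPN.

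The clusters also took different places among the 12 projection neuron clusters of their libraries. By median UMIs, P1_14 ranked 2, 1 and 2 in libraries 3, 4 and 5, counted from the highest, and P1_16 ranked 6, 10 and 10. P7_14 ranked 6 of 12 in library 1 and 9 of 12 in library 2. By the mean of its library medians P1_14 was the highest of the 12 projection neuron clusters at P1, with 7719 UMIs, and was followed by a CThPN cluster, P1_15_CThPN, with 6785. The P1_16 mean of 3621 was the rank 10 value.

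Beside CPN of the same library, SCPN held more UMIs at P1 and P21 and slightly fewer at P7. The ratio of the SCPN median to the CPN median was 1.37, 1.23 and 1.26 in P1 libraries 3, 4 and 5, 0.942 and 0.923 in P7 libraries 1 and 2, and 1.82 and 1.5 in P21 libraries 6 and 8. SCPN were higher in 5 of 7 libraries. On the log2 scale the mean difference was 0.33 ± 0.35 (SD, n = 7 libraries), and over all ages together it did not pass the two-sided exact permutation test by sign change (adjusted p = 0.0938). Genes per cell followed, with log2 ratios of 0.35, 0.31 and 0.29 in the P1 libraries, -0.01 in each P7 library and 0.53 and 0.31 in the P21 libraries, with an adjusted exact permutation p of 0.0938.

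The median mitochondrial share of SCPN minus that of CPN was 0.149, 0.490 and 0.292 percentage points in P1 libraries 3, 4 and 5. It was -0.511 and -0.685 in P7 libraries 1 and 2, and 0.694 and 1.35 in P21 libraries 6 and 8. SCPN were again higher than CPN at P1 and P21 and lower at P7, and the mean over the 7 libraries, 0.255 ± 0.70 points, was not past the threshold of the exact permutation test (p = 0.391).

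The difference between SCPN and CPN itself changed with age. For UMIs the log2 difference was 0.36 ± 0.08 (SD, n = 3) at P1, -0.10 ± 0.02 (n = 2) at P7 and 0.73 ± 0.19 (n = 2) at P21, and the libraries of different ages did not overlap (two-sided exact permutation test over 210 assignments, adjusted p = 0.0143). For the mitochondrial share the P7 difference minus that at P1 was -0.908 percentage points, and the P21 difference lay 0.713 points above that at P1 (adjusted exact permutation p = 0.0143). For genes the P7 difference was lower than at P1 by 0.33 on the log2 scale and the P21 difference was higher by 0.10 (adjusted exact permutation p = 0.0286). In genes P21 library 8, at 0.31, lay inside the range of the P1 libraries, and only P21 library 6, at 0.53, lay above it. Each p is for all ages together and not for a pair of ages.

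The partner changed with age too, since CPN comprised 6 clusters at P1, 6 at P7 and 1 at P21. With layer IV neurons added to CPN the adjusted permutation p for UMIs was 0.438. The annotation gave the layer IV clusters names that end in CPN (P1_1_CPN, P7_2_CPN and P21_51_CPN), but layer IV as their cell type. The cell type was used here. The median of CPN itself was 3588 to 4657 UMIs at P1, 5223 and 5411 at P7, and 3792 and 5723 in P21 libraries 6 and 8, while the SCPN medians at P7 lay inside the range of those at P1. With any P1 library left out the adjusted permutation p was 0.1 for UMIs and for the mitochondrial share. The permutation p before adjustment was then 0.0667, the smallest possible with so few libraries, so that the test could not pass. The differences between P7 and P1 were then -0.49 to -0.42 in log2 UMIs and -0.989 to -0.819 points.

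**Figure D4:**
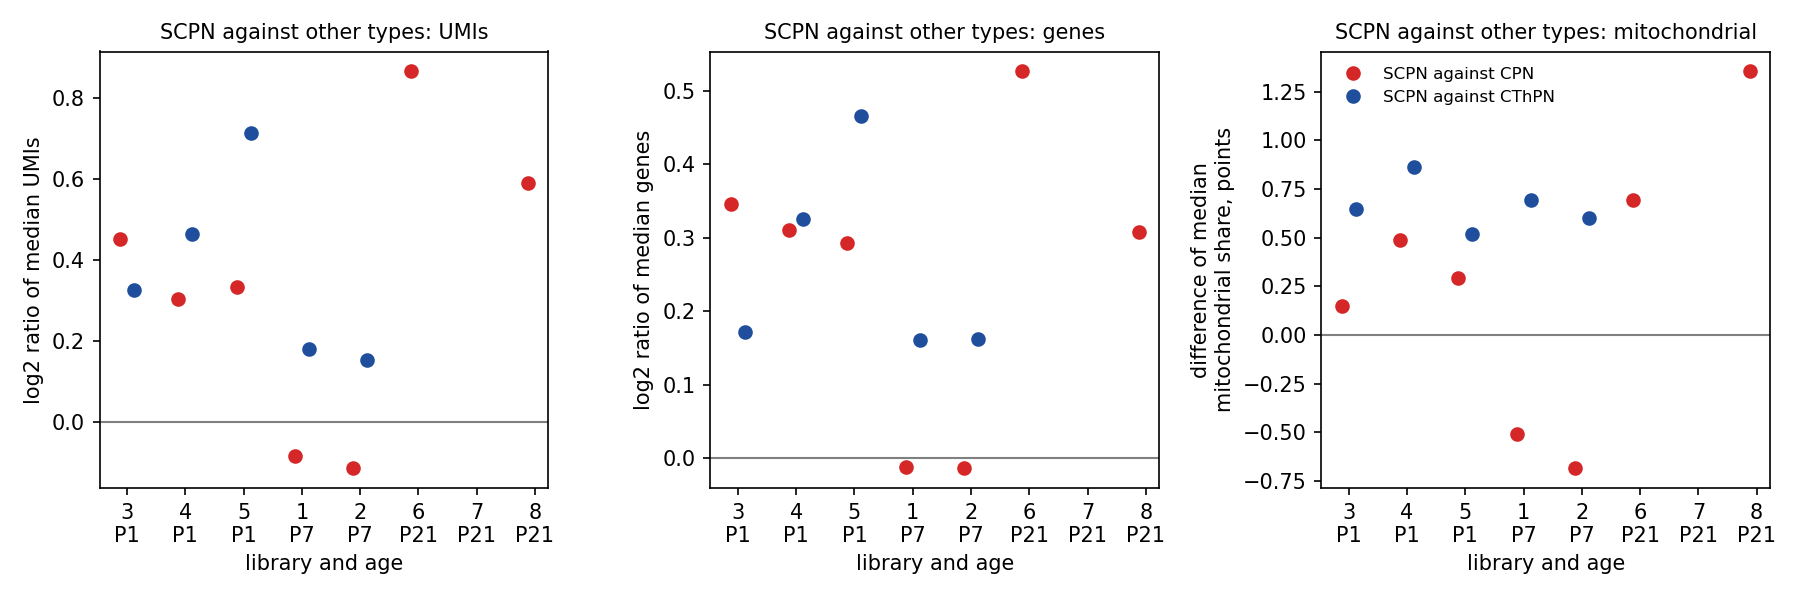
SCPN minus CPN and SCPN minus CThPN within each library, as log2 ratios of median UMIs (left) and median genes (middle) and as the difference of median mitochondrial shares in percentage points (right), with a line at 0. The values against CPN were below 0 in both P7 libraries on every measure, and all values against CThPN were above 0.

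At P1 the higher UMIs of SCPN relative to CPN were found in P1_14 and not in P1_16. In libraries 3, 4 and 5 the median UMIs of P1_14 were 1.5-fold, 2.42-fold and 1.81-fold those of CPN, and those of P1_16 were 1.01-fold, 0.874-fold and 0.832-fold. With P1_14 left out, the P7 difference in log2 UMIs between SCPN and CPN minus that at P1 was 0.0488, against -0.46 with all cells. The adjusted exact permutation p for P1, P7 and P21 together was 0.0667. This alternative was chosen after the clusters had been examined, and P1_14 was among the clusters of highest content.

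Beside CThPN, SCPN were higher on all 3 measures in each of the 5 libraries of P1 and P7. The median UMIs of SCPN were 1.25-fold, 1.38-fold and 1.64-fold those of CThPN in P1 libraries 3, 4 and 5, and 1.13-fold and 1.11-fold in P7 libraries 1 and 2. The mean log2 difference was 0.37 ± 0.23 (SD, n = 5) for UMIs and 0.26 ± 0.14 for genes. With 5 libraries the two-sided exact permutation test cannot go below p = 0.063, the value reached for each measure. At P1 this difference too was found in P1_14, with 1.38-fold, 2.70-fold and 2.36-fold the median UMIs of all CThPN together. P1_16 was at 0.925-fold, 0.977-fold and 1.08-fold. CThPN clusters also differed widely, with means of library medians of 6785 UMIs in P1_15_CThPN, 6493 in P1_11_CThPN and 2921 in P1_4_CThPN. P1_11_CThPN lay above P1_14 in library 3, at 5616 against 5384 UMIs, and P1_15_CThPN in library 5, at 8596 against 8446. In library 4 P1_14 was above every CThPN cluster.

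The mitochondrial share of SCPN was above that of CThPN by a similar amount in each library. The median was higher by 0.649, 0.862 and 0.516 percentage points in P1 libraries 3, 4 and 5 and by 0.696 and 0.602 points in P7 libraries 1 and 2, with a mean of 0.665 ± 0.129 (SD, n = 5; exact permutation p = 0.063, the smallest possible). Both P1 clusters shared it. The difference from CThPN was 0.641, 1.17 and 0.383 points in P1_14 and 0.749, 0.675 and 0.536 points in P1_16. The mean difference from CThPN fell to 0.239 points when cells at or above 5% were left out. That filter cuts the measure itself and so limits how large the difference can be. Among SCPN, CPN, CThPN and layer IV neurons, CThPN had the lowest median share in each of the 5 libraries. At P1 the means of library medians were 3.59% in CThPN, 3.96% in CPN, 4.27% in SCPN and 4.90% in layer IV neurons. At P7 they were 4.55%, 5.80%, 5.20% and 5.73% in the same order, so that CPN too lay above CThPN.

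Genes and mitochondrial share move with UMIs, so SCPN were also compared with partner cells of the same library and the same bin of 500 UMIs, where the bin held at least 5 partner cells. At matched UMIs, SCPN had 1.77%, 4.98% and 3.98% more genes than CPN in P1 libraries 3, 4 and 5, and 5.45% and 4.75% more in P7 libraries 1 and 2. The excess was present in 5 of 5 libraries, with a mean log2 difference of 0.06 ± 0.02 (SD), and the exact permutation test gave p = 0.063, the smallest possible (adjusted p = 0.125). It was larger in P1_16, with 5.94%, 5.77% and 5.18%, than in P1_14, with 0.430%, 3.84% and 2.90%. The clusters were matched to CPN in different bins. Matched directly to P1_14, P1_16 differed in log2 genes by 0.06, -0.01 and 0.01 in libraries 3, 4 and 5 (mean 0.02 ± 0.04, SD, n = 3), with only 8 matched cells in library 4.

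Against CThPN at matched UMIs, genes did not differ in a uniform direction. The log2 differences were -0.04, -0.01 and -0.01 in P1 libraries 3, 4 and 5 and 0.07 and 0.07 in P7 libraries 1 and 2 (mean 0.02 ± 0.05, SD, n = 5; exact permutation p = 0.5). SCPN were slightly below CThPN at P1 and above them at P7, and whether the ages differed was not tested.

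The mitochondrial excess over CThPN was as large at matched UMIs. It was 0.651, 0.868 and 0.653 percentage points in P1 libraries 3, 4 and 5 and 0.540 and 0.556 points in P7 libraries 1 and 2, with a mean of 0.653 ± 0.131 (SD, n = 5; exact permutation p = 0.063, adjusted p = 0.125). Against CPN the matched difference was 0.193, 0.595 and 0.320 points at P1 and -0.408 and -0.518 points at P7, so that its sign followed age here as well. At P21 only 12 SCPN of library 6 and 6 of library 8 had a usable bin, and no matched value was computed.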

How the data were processed

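Per the labels, single-cell libraries were made from live cells that took up Vybrant DyeCycle Ruby and excluded DAPI. A tdTomato sort is also described in the labels, and the libraries were taken as the live sort. Using Cell Ranger 3.0.1 and build mm10, the authors aligned the reads, thinned libraries to a like coverage, kept cells with at least 1000 and at most 6000 genes, at most 15000 UMIs and under 10% mitochondrial reads, and clustered cells with UMIs and mitochondrial share regressed out. In the deposited table, UMIs were counts per cell, genes were the number detected per cell, and the mitochondrial share was a fraction, written here in percent. All 60989 cells lay inside these limits on genes, UMIs and mitochondrial share.

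Each cell's age came from the table and its library from the number after its barcode. Library numbers were not tied to single samples. Of the SCPN, 85 (6.81%) shared a barcode with a cell of another library, against 7.03% of all cells, and 0 barcodes were named SCPN in more than 1 library. No doublet caller was run.

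Every SCPN cluster was named with its values, with CPN and CThPN as partners and layer IV given once. The members, lists and tests were chosen with earlier results of these data known. Medians per library needed at least 20 cells of each type. Values among ages were tested by the between-age sum of squares over every assignment of libraries, and within-library differences by every change of sign. All tests were exact, two-sided permutation tests with Benjamini-Hochberg adjustment within each family and a threshold of 0.05. Shares had 95% Clopper-Pearson intervals, and 3 counts served as the upper limit where none was found. All such intervals cover counting error only. The permutation tests were tested on simulated data. Alternatives changed the scale, cell filters, cell minimum, bins, partner, weighting of P7 libraries and the libraries or clusters included. The software was scipy 1.17.1, pandas 2.3.3 and numpy 2.4.6 under Python 3.11.15, with matplotlib 3.10.9 for plots.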

Additional observations from a re-analysis of the deposited data

Results flagged for a closer look

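The difference between SCPN and CPN within a library differed among the ages on 3 measures, each by an exact permutation test over 210 assignments of libraries to ages. The value at P7 minus that at P1 was, for UMIs, -0.46 on the log2 scale (adjusted permutation p = 0.0143), for genes, -0.33 (adjusted permutation p = 0.0286) and for the mitochondrial share, -0.908 percentage points (adjusted permutation p = 0.0143). Each p is for P1, P7 and P21 together, and not for P7 against P1 alone. All P7 libraries lay below all P1 libraries on each measure. The calls for UMIs and the mitochondrial share were lost when any P1 library was left out. There the exact permutation test cannot go below p = 0.0667 on any measure, so that this loss was fixed in advance. The call for genes was lost on leaving out any P1 or P7 library, or library 6. Groups of 2 or 3 libraries are too small for a search for outlying libraries.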

How the results depend on the processing

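Of 300 alternative values for 21 results, 260 kept direction and side of the threshold, 27 lost a call, 6 gained a call and 7 changed sign. All results against CThPN or at matched UMIs had too few libraries to pass, so that their side of the threshold was fixed in advance. The difference in UMIs between the P1 clusters had no test, and counted as kept when it moved by less than its SD over libraries. Values below are P21 minus P1 for shares and levels, and P7 minus P1 for the difference between SCPN and CPN. Each is given with an exact permutation p after adjustment, which tests all ages kept together and not that pair alone. The cause was not tested except where fewer libraries raise the smallest possible p.

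The fall in the share of all cells was -3.92 in log2 odds (permutation p = 0.129) and -2.90 points in cells with at least 1500 genes (permutation p = 0.0536). Without single libraries it was -2.97 to -2.40 points and kept its call. Without single libraries the share of projection neurons ranged from 0.260 to 6.98 points and SCPN per 100 CPN from 2.51 to 16.2, with the highest values, which passed, without library 7 (permutation p = 0.00952).

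The difference among ages between SCPN and CPN lost its calls with cells under 5% mitochondrial share. It was then -0.53 in log2 UMIs and -0.39 in log2 genes (permutation p = 0.15). For the mitochondrial share, which this filter itself cuts, it was -0.0151 points (permutation p = 0.9). It lost them with at least 50 SCPN per library, at -0.46, -0.33 and -0.908 (permutation p = 0.1). No P21 library remained under either setting. With P1 and P7 alone the permutation test cannot go below p = 0.1, so that no call was possible. For genes it was -0.33 with the P7 libraries averaged as 1 (permutation p = 0.05), and for the mitochondrial share -0.595 points with means over cells (permutation p = 0.0667). With layer IV added to CPN it was -0.34 in UMIs and -0.25 in genes (permutation p = 0.438), while SCPN were then higher over all ages by 0.27 in UMIs and 0.22 in genes (permutation p = 0.0234). Without single libraries the ranges were -0.49 to -0.42 in UMIs, -0.34 to -0.31 in genes and -0.996 to -0.819 points.

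Chosen after seeing the data, leaving out P1_14 turned the difference among ages to 0.0488 in UMIs and 0.0154 in genes (permutation p = 0.0667), the matched mitochondrial difference from CPN to -0.0740 points (permutation p = 0.688), and the change of SCPN medians to 4138 UMIs and 1540 genes (permutation p = 0.0143). Leaving out P1_16 gave -1.01, -0.65 and -0.963 points (permutation p = 0.0667), and brought the change of SCPN medians to 40.0 UMIs and 418 genes (permutation p = 0.324), against 2581 and 1043 with all SCPN. The mitochondrial difference from CPN was -0.0529 points with at least 50 SCPN (permutation p = 0.813), and at matched UMIs it ranged from -0.103 to 0.175 without single libraries, below 0 without each P1 library.

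With 3, 2 and 2 libraries in the levels, the P21 values rest on 46 SCPN. The comparisons with CPN and CThPN pair cell types within a library. No paired analysis was possible between ages because libraries of different ages share no animals and their numbers could not be tied to samples.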

Other observations

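Layer IV neurons, the excitatory cells that receive thalamic input, lay below SCPN in median UMIs at the younger ages, with 3189, 4409 and 3951 in P1 libraries 3, 4 and 5 and 3162 and 3350 in P7 libraries 1 and 2. At P21 the 13 layer IV cells of library 6 had a median of 7675 UMIs and the 178 of library 8 a median of 9081, both above the SCPN of their library. Their median mitochondrial share at P21 was 2.76% and 2.81%, below the 4.97% and 4.91% of SCPN. These values were not tested.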
